A study of Mus musculus with 2 samples.

Results

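The cells described here are the 186 B16F0 melanoma cells that the deposited cell annotation places in trajectory state 2, chosen by the line and the state number alone. They are 7.20% of the 2582 B16F0 cells (exact Clopper-Pearson 95% interval 6.24 to 8.27%) and belong to a table of 4156 cells in all. The study sequenced single cells of 2 mouse melanoma lines with 10x Genomics droplet 3′ chemistry, with 1 library per line: B16F0, the parental line, and B16F10, labelled as its highly metastatic subclone. None of the 1574 B16F10 cells was in state 2, which allows a share of up to 0.191% (3 counts of the total). No treatment is named in the labels for either line.

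A trajectory orders cells by how alike their transcripts are and cuts the resulting tree into branches, called states, and pseudotime is the distance of a cell along the tree from a chosen root. Dividing cells first copy their DNA (S phase) and then prepare and carry out chromosome segregation (G2 and M phase), when transcripts for mitotic kinases, kinetochore proteins and spindle proteins accumulate. B16 melanoma cells also carry the melanocyte programme, in which the factors Mitf and Sox10 drive the pigment enzymes Tyr, Tyrp1 and Dct.

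Each of the 186 state 2 cells was classed as cycling by the authors, and none of the 1171 non-cycling B16F0 cells was in state 2, which allows up to 0.256% by the same limit. In the table as a whole, the cycling class was the same as having an S or a G2/M score above 0, in 4156 of 4156 cells. State 2 was therefore set against the other 1225 cycling B16F0 cells, of which 165 were in state 1, 547 in state 4, 479 in state 5 and 34 in the remaining states 3, 6 and 7. State 2 made up 13.2% of the 1411 cycling B16F0 cells (11.5 to 15.1%). All these cells come from 1 library, so cells are not replicates and no p-value is given. The states were drawn by the authors from the expression of these same cells, and the genes used for it are not stated in the sources at hand, so every contrast below is a description. Values are CPM, a gene's UMIs summed over a group and scaled so that each group has the same total, where a UMI marks 1 captured molecule, and the 95% intervals cover counting error only.

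State 2 cells were somewhat deeper than their neighbours. Their median was 41345.5 UMIs per cell, with quartiles of 32868.5 and 49093, against 36728 UMIs in other cycling cells, with quartiles of 27737 and 45384. The summed counts held 7654511 UMIs in state 2 and 45423898 in other cycling cells. Median detected genes were 5744.5 in state 2 and 5392 in other cycling cells. The mitochondrial share of UMIs had a median of 4.99% in state 2 and 5.38% in other cycling cells, and the ribosomal protein share a median of 25.3% in state 2 and 27.3% in other cycling cells. Of 6 cell barcodes found in both libraries, 0 belonged to state 2 cells and 5 to other cycling cells.

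The cells carried the melanocytic markers at the level of the other cycling cells. Mitf, the lineage transcription factor, was at 83.7 CPM in state 2 and 81.6 CPM in other cycling cells. Sox10, a factor that acts upstream of Mitf, was at 77.1 CPM in state 2 and 76.8 CPM in other cycling cells. Dct, a melanin synthesis enzyme, was at 2230 CPM in state 2 and 2229 CPM in other cycling cells, and Mlana, a melanosomal protein, at 2482 CPM in state 2 and 2644 CPM in other cycling cells. Markers of other cell types were low in both groups. The 5 of 10 fibroblast markers in the table summed to 5.49 CPM in state 2 and 6.38 CPM in other cycling cells, and the 3 of 10 macrophage markers to 8.10 CPM in state 2 and 8.98 CPM in other cycling cells. The 3 of 10 keratinocyte and epithelial markers summed to 0.392 CPM in state 2 and 0.506 CPM in other cycling cells. The 4 of 10 endothelial markers summed to 59.3 CPM in state 2 and 66.6 CPM in other cycling cells, nearly all from Egfl7, a secreted protein, and none of the listed T cell, NK cell or erythroid markers was in the table.

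Along the trajectory, state 2 covered a short stretch. Its pseudotime lay between 3.06 and 4.45, with a median of 3.51 in the authors' units. Cycling state 1 cells lay between 3.57 and 10.6 (median 5.35), state 4 cells between 0 and 1.88 (median 0.960) and state 5 cells between 2.55 and 12.2 (median 6.48). In pseudotime, state 2 thus came after state 4 with no overlap, and its range overlapped those of states 1 and 5.

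What set state 2 apart from most other cycling cells was its place in the cell cycle. The authors' G2/M score had a median of 0.237 in state 2 (quartiles 0.0833 and 0.382), against 0.0376 in other cycling cells (quartiles -0.124 and 0.187). The S score differed less, with a median of 0.108 in state 2 and 0.0894 in other cycling cells. Both scores were above 0 in 124 of 186 state 2 cells, or 66.7% (59.4 to 73.4%), against 392 of 1225 other cycling cells, or 32.0% (29.4 to 34.7%). Cells with S above 0 and G2/M at or below 0 were 17 of 186 in state 2, or 9.14%, against 506 of 1225 other cycling cells, or 41.3%. The share with G2/M alone above 0 was 24.2% in state 2 and 26.7% in other cycling cells. Cells scoring for S alone were thus scarcer in state 2 than in the pooled other cells. By state, their share was 17.6% in state 1 (12.1 to 24.3%), 26.9% in state 4 and 62.8% in state 5. The interval of state 2 (5.41 to 14.2%) overlapped that of state 1. The median G2/M score was 0.237 in state 2, 0.224 in state 1, 0.0991 in state 4 and -0.138 in state 5. By this score state 1 was the closest to state 2. By the S score state 4 was, with medians of 0.108 in state 2, 0.0663 in state 1, 0.140 in state 4 and 0.0632 in state 5. Both scores were above 0 in 66.7% of state 2, 47.9% of state 1, 50.8% of state 4 and 7.31% of state 5 cells.

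**Figure D1:**
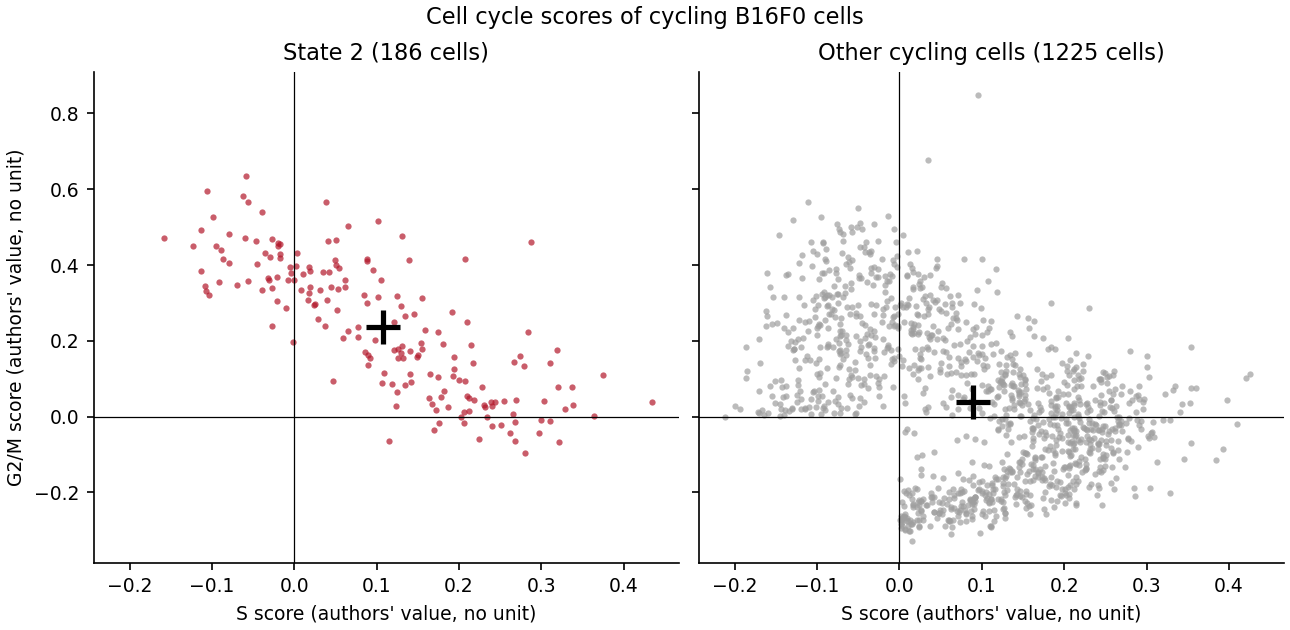
Authors' S score (horizontal) and G2/M score (vertical) of each cycling B16F0 cell, with 186 state 2 cells on the left and 1225 other cycling cells on the right; the cross marks the medians. In state 2, 17 of 186 cells have a G2/M score at or below 0, against 506 of 1225 other cycling cells.

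Mitotic genes led the comparison of state 2 with other cycling cells. The comparison covered 5114 genes that reached 20 CPM in one group or the other. By 2-fold or more, 15 were higher in state 2 (0.293%) and 4 lower (0.0782%). At 1.5-fold, 88 were higher (1.72%) and 8 lower (0.156%). The 15 comprised the kinetochore and centromere genes Cenpl, Knl1 and Sgo2a, Cdca2, which brings a phosphatase to mitotic chromatin, the spindle genes Nusap1, Fam83d and Troap, and the kinases Aurka, Aurkb and Cdk1. They also held Ccnb1 and Ccnf, which encode cyclins, Depdc1a, Mxd3, a repressor that pairs with Max, and Cxcl10, a chemokine treated apart below. The count of 15 was 6 when the totals were scaled by TMM.

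The promoters of the leading mitotic genes are shown because G2/M genes as a class are known for a CCAAT box, bound by NF-Y, and for the cell cycle homology region, whose core reads TTTGAA. The 200 bases before the RefSeq start (GRCm38.p6) are given 5′ to 3′ on the gene's strand, with matches to CCAAT or TTTGAA on either strand in capitals, for the 5 genes with the highest ratios at 50 CPM or more. They lie at chr2:119618098-119618297 on the plus strand for Nusap1, and on the minus strand at chr2:172370571-172370770 for Aurka, chr13:100786487-100786686 for Ccnb1, chr13:55329732-55329931 for Mxd3 and chr10:69352913-69353112 for Cdk1.
Nusap1: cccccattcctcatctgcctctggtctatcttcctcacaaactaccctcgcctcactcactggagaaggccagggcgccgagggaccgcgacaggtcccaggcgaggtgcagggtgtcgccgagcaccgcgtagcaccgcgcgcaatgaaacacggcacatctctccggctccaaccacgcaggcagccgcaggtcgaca
Aurka: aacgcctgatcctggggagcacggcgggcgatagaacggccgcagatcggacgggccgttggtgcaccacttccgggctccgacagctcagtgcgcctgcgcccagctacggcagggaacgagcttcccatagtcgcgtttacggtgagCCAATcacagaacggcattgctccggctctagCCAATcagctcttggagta
Ccnb1: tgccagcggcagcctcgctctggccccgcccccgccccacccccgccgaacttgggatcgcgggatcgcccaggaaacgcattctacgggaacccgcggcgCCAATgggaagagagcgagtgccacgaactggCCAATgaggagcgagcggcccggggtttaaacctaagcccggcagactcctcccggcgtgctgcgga
Mxd3: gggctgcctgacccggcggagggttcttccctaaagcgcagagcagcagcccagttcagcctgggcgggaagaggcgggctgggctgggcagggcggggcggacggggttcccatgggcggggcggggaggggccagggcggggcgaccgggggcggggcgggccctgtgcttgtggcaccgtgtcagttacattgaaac
Cdk1: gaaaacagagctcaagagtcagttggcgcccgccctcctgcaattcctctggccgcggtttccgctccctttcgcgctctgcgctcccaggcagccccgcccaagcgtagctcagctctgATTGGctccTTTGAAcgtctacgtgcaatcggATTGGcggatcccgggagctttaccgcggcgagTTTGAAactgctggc
Cdk1 held 2 CCAAT and 2 TTTGAA matches, Ccnb1 and Aurka 2 CCAAT matches each, and Nusap1 and Mxd3 none in this window. Of the 15 genes with the highest ratios at 50 CPM or more, 11 had a promoter in the table, of which 8 held CCAAT and 2 held TTTGAA. Over the G2 and M phase list, 37 of 48 promoters matched in the table held CCAAT (77.1%), 19 held TTTGAA (39.6%) and 17 held both (35.4%). The same windows of 4108 tested genes held CCAAT in 34.1%, TTTGAA in 7.89% and both in 3.31%. A match is a description of the letters and not a site of binding.

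Among genes of at least 50 CPM the highest ratio was that of Nusap1, which bundles spindle microtubules. Nusap1 was at 107 CPM in state 2 (100 to 115) and 44.3 CPM in other cycling cells (42.3 to 46.2), a log2 ratio of 1.28 (1.16 to 1.40). State 2 cells held a median of 3 Nusap1 UMIs, with quartiles of 1 and 6.75 and a highest count of 20, against a median of 1 with quartiles of 0 and 2 in other cycling cells. With each cell thinned to 19718 UMIs, 75.7% of 173 state 2 cells had a Nusap1 UMI (68.6 to 81.9%), against 40.0% of 1082 other cycling cells (37.1 to 43.0%). The unthinned shares for Nusap1 were 85.5% in state 2 and 50.04% in other cycling cells. Thinning left out 13 state 2 cells and 143 other cycling cells that were shallower. No cell type that should lack the gene was in this library, and background from free RNA was therefore not measured here.

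The mitotic kinases moved together. Aurka, the centrosomal kinase, was at 98.8 CPM in state 2 and 44.0 CPM in other cycling cells (log2 ratio 1.17, 1.04 to 1.29). Cdk1, the kinase that drives entry into mitosis, was at 250 CPM in state 2 and 122 CPM in other cycling cells (1.03, 0.95 to 1.10), with median counts of 7 UMIs per cell in state 2 and 3 in other cycling cells. Ccnb1, the cyclin that activates it, was at 152 CPM in state 2 and 74.3 CPM in other cycling cells (1.04, 0.94 to 1.13). Aurkb, the kinase of the chromosomal passenger complex, was at 103 CPM in state 2 and 50.7 CPM in other cycling cells. Plk1, a kinase of centrosome maturation and mitotic exit, was at 52.8 CPM in state 2 and 29.1 CPM in other cycling cells. Pbk, another mitotic kinase, was at 143 CPM in state 2 and 74.6 CPM in other cycling cells.

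Several other genes with roles in mitosis or in chromatin, most of them among the 15 highest ratios at 50 CPM or more, had ratios under 2-fold. Cenpf, of the outer kinetochore, was at 197 CPM in state 2 and 103 CPM in other cycling cells (log2 ratio 0.93). Spc25, of the NDC80 complex, was at 148 CPM in state 2 and 76.8 CPM in other cycling cells, and Ska1, which couples kinetochores to microtubules, at 57.0 CPM in state 2 and 30.5 CPM in other cycling cells. Ube2c, the ubiquitin carrier of the anaphase-promoting complex, was at 451 CPM in state 2 and 246 CPM in other cycling cells. Fzr1, an activator of that complex, was at 52.3 CPM in state 2 and 26.8 CPM in other cycling cells. Hmgb2, an abundant chromatin protein, was at 821 CPM in state 2 and 488 CPM in other cycling cells (0.75), and Top2a, which untangles DNA, at 315 CPM in state 2 and 201 CPM in other cycling cells (0.65). Mki67, the proliferation marker, was at 52.3 CPM in state 2 and 29.1 CPM in other cycling cells (0.85). The cell cycle inhibitors Cdkn2d and Cdkn2c were also higher, with 152 CPM of Cdkn2d in state 2 and 79.6 CPM in other cycling cells, and 67.7 CPM of Cdkn2c in state 2 and 37.3 CPM in other cycling cells. Kpna2, a nuclear import receptor, was at 53.3 CPM in state 2 and 27.2 CPM in other cycling cells. Ube2t, a ubiquitin carrier of DNA crosslink repair, was at 73.6 CPM in state 2 and 39.4 CPM in other cycling cells.

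**Figure D2:**
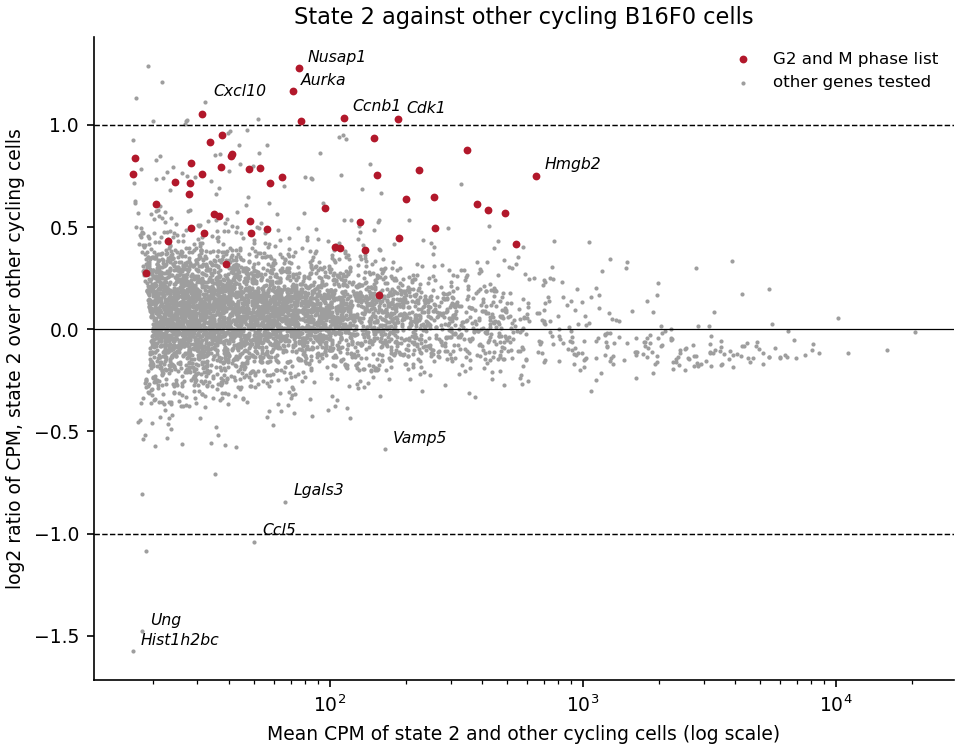
Mean CPM of the groups (log axis) and log2 ratio of CPM, state 2 over other cycling cells, for the 5114 genes with at least 20 CPM; red points are the G2 and M phase list and dashed lines mark 2-fold. The red points lie above 0 for 52 of 52 genes, while few other genes pass either dashed line.

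As a list, 52 of 54 G2 and M phase genes reached 20 CPM. Of these, 52 had a log2 ratio above 0, 32 passed 1.5-fold upwards and 0 downwards, with a median of 0.69. Over all 5114 genes tested, 3427 lay above 0, 1.72% passed 1.5-fold upwards and the median was 0.07. The list was drawn up with earlier results of these data known. Of 39 S phase genes, 30 lay above 0, a share not far from that of all genes, with a median of 0.22, and none was 1.5-fold higher. Within the S list the order was uneven. Rfc4, of the clamp loader, was at 103 CPM in state 2 and 73.4 CPM in other cycling cells (0.49). Pcna, the sliding clamp, was at 154 CPM in state 2 and 124 CPM in other cycling cells (0.31). Hells, a chromatin remodeller, was at 144 CPM in state 2 and 165 CPM in other cycling cells (-0.19), and Ccne1, the cyclin of S phase entry, at 56.3 CPM in state 2 and 59.2 CPM in other cycling cells (-0.07). Ung, which removes uracil from DNA, was the S phase gene with the lowest ratio, at 9.54 CPM in state 2 and 26.5 CPM in other cycling cells (-1.48, -1.84 to -1.13). By state, Ung was at 9.54 CPM in state 2, 11.6 CPM in state 1, 18.4 CPM in state 4 and 41.4 CPM in state 5. Hist1h2bc, a histone gene whose near-identical copies make its counts uncertain, was at 8.36 CPM in state 2 and 24.9 CPM in other cycling cells.

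The list stood at similar levels in states 2 and 1 and lower in states 4 and 5. Nusap1 was at 107 CPM in state 2, 97.3 CPM in state 1, 55.9 CPM in state 4 and 12.0 CPM in state 5. Cdk1 was at 250 CPM in state 2, 202 CPM in state 1, 149 CPM in state 4 and 63.7 CPM in state 5. Ccnb1 was at 152 CPM in state 2, 152 CPM in state 1, 85.1 CPM in state 4 and 34.9 CPM in state 5. Cenpf ran higher in state 1, with 197 CPM in state 2, 248 CPM in state 1, 111 CPM in state 4 and 42.5 CPM in state 5. States 2 and 1 thus lay close together, and state 5 lay furthest from state 2 for each of these 4 genes. Set against state 5, the G2 and M phase list had 50 of 52 genes past 1.5-fold upwards (median 1.44), where 5.85% of all genes tested were higher and 0.992% lower. Against state 4, 15 of 52 were higher (median 0.46), where 0.922% of all genes were higher and 0.0784% lower. Against state 1, 22 of 52 lay above 0 and 0 were 1.5-fold higher or lower (median -0.06), where 1.26% of all genes were higher and 1.65% lower.

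**Figure D3:**
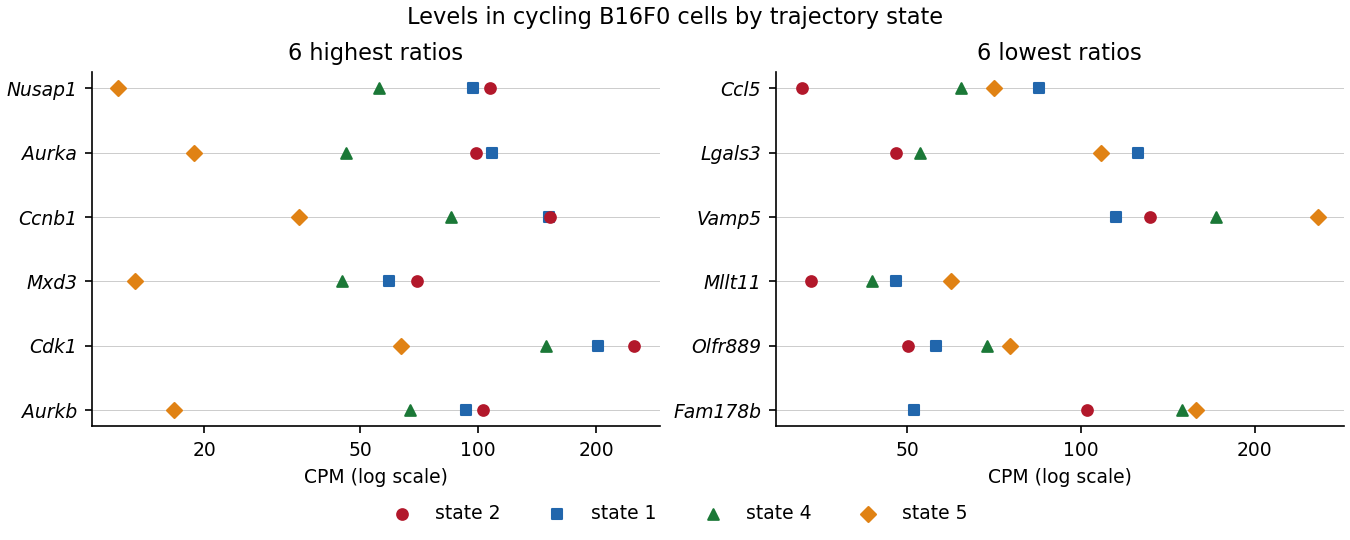
CPM (log axis) of the genes with the 6 highest and 6 lowest ratios among those of at least 50 CPM, in cycling B16F0 cells of state 2 (circles), state 1 (squares), state 4 (triangles) and state 5 (diamonds). In the left panel circles and squares lie to the right of the triangles, and the diamonds lie furthest left, at 12.0 CPM for Nusap1.

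When the reference was matched on both scores, the mitotic difference shrank. For this, 179 state 2 cells were compared with 1008 other cycling cells in 11 bins of S and G2/M score, weighted to the same mix, and 7 state 2 cells had too few partners. The median of the G2 and M phase list was then 0.09, against 0.07 over all genes tested. Above 0 lay 42 of 52 genes of the list and 3574 of all 5101 genes tested. No gene was 1.5-fold higher (0.0% of 5101 tested) and 2 were 2-fold lower (0.0392%). These were Ccl5, with 33.8 CPM in matched state 2 cells and 112 CPM in matched other cells, and Ifit1, an interferon-stimulated gene, with 13.1 CPM in matched state 2 cells and 30.6 CPM in matched other cells. Of the Ifit1 UMIs in state 2, 5 cells held 93.9%, so its state 2 value rests on few cells, as does that of Ccl5, given below. The scores and the list track the same phases, so a smaller difference under this matching is partly set by its construction. The genes behind the scores are not stated. Cdk1 was at 242 CPM in matched state 2 cells and 187 CPM in matched other cells, a log2 ratio of 0.37. Among genes of at least 50 CPM, the highest matched ratio was that of Sap30, a subunit of the Sin3 histone deacetylase complex, named here after its values were seen. Sap30 was at 51.7 CPM in matched state 2 cells and 36.3 CPM in matched other cells (0.51). Without matching, Sap30 was at 51.2 CPM in state 2, 37.4 CPM in state 1, 35.4 CPM in state 4 and 33.1 CPM in state 5. Frg1, a nucleolar protein, came next and was likewise highest in state 2. It was at 64.7 CPM in state 2, 44.7 CPM in state 1, 49.2 CPM in state 4 and 44.6 CPM in state 5.

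Growth and metabolism lists differed less than the mitotic list. Of 20 ATF4 and amino acid response genes, 19 lay above 0, with a median of 0.21, and none passed 1.5-fold. Trib3, a pseudokinase target of ATF4, was at 288 CPM in state 2 and 215 CPM in other cycling cells (0.42). Asns, asparagine synthetase, was at 288 CPM in state 2 and 224 CPM in other cycling cells (0.37), and Shmt2, of mitochondrial one-carbon metabolism, at 181 CPM in state 2 and 143 CPM in other cycling cells (0.34). After matching on the scores, 20 of 20 lay above 0 with a median of 0.16, where 3574 of all 5101 genes did (median 0.07). Of 11 cholesterol genes, 8 lay above 0 (median 0.16), which is near the share of all genes. Mvk, mevalonate kinase, had the highest ratio of that list, with 25.7 CPM in state 2 and 17.6 CPM in other cycling cells (0.55). Splicing factors (29 of 31 above 0, median 0.18) and proteasome subunits (29 of 31, median 0.14) lay slightly above all genes. Of 10 glycolysis genes 8 lay above 0 (median 0.03), and of 10 fatty acid genes 4 did (median -0.07). Of 48 cytosolic ribosomal protein genes, 0 lay above 0 (median -0.12), and of 12 mitochondrially encoded genes 1 did (median -0.09). The ribosomal protein and mitochondrial shares of UMIs per cell differed in the same direction, as given above. Several of these lists read otherwise against state 1, where 2624 of all 5323 genes tested lay above 0. There, 6 of 20 ATF4 genes (median -0.06) and 9 of 31 splicing factors (median -0.08) did. Proteasome subunits did in 22 of 31 (median 0.10), ribosomal protein genes in 23 of 48 and mitochondrially encoded genes in 5 of 12 (medians -0.01 each). In state 1 cells the median ribosomal protein share was 25.1% and the mitochondrial share 4.96%.

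**Figure D4:**
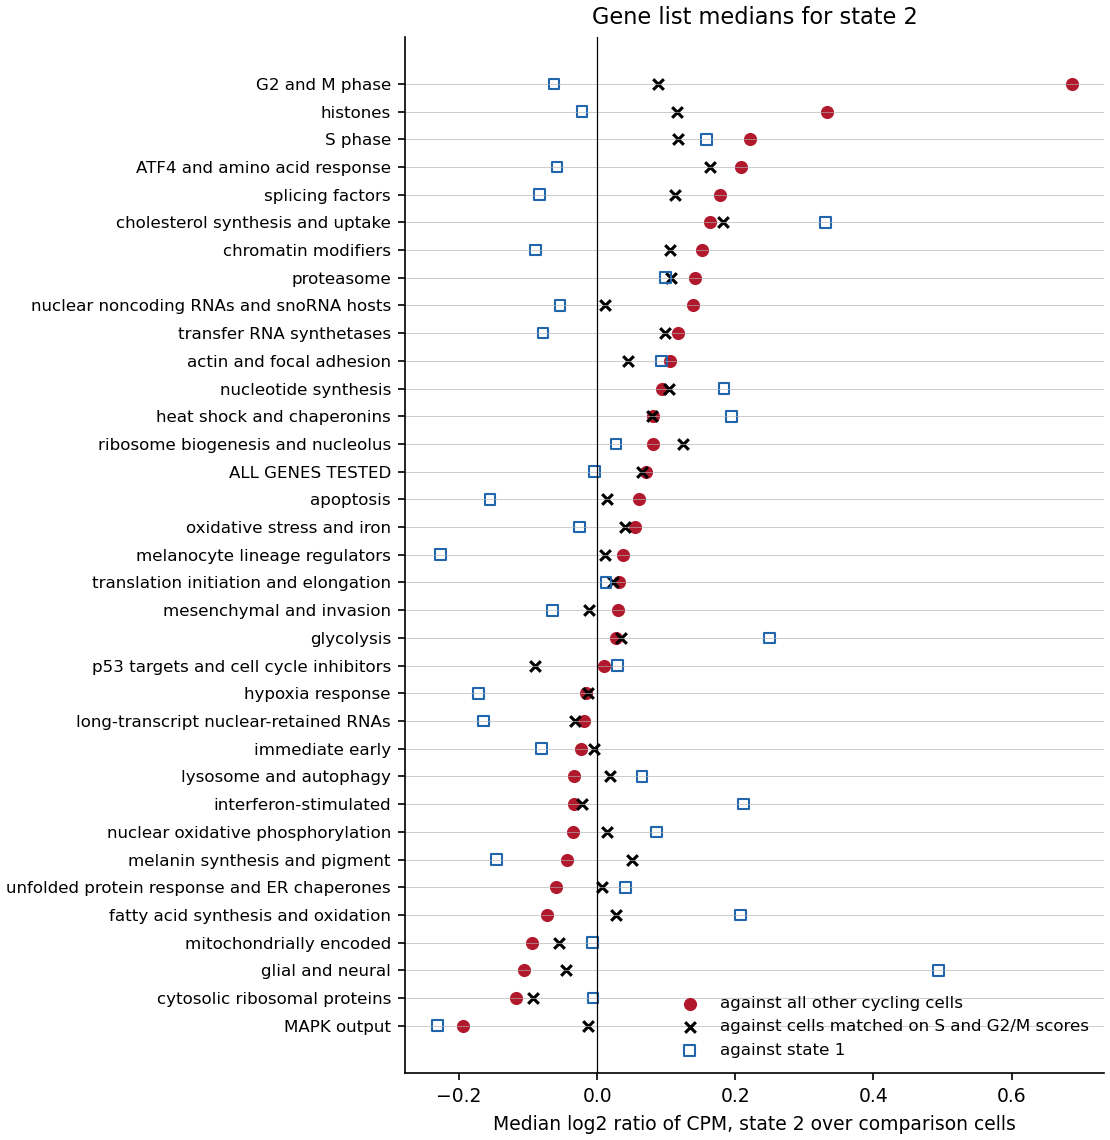
Median log2 ratio of CPM for each gene list with at least 5 genes tested, state 2 over all other cycling cells (filled circles), over cells matched on the scores (crosses) and over state 1 (open squares). The G2 and M phase list lies at 0.69 against all other cycling cells, at 0.09 after matching and at -0.06 against state 1. The glial and neural list reaches 0.49 against state 1 on 6 genes tested, of which 4 lay above 0. Of those 6, 2 were at least 1.5-fold higher and 1 lower, where 1.26% and 1.65% of all genes were. Against all other cycling cells that list lies at -0.11, with 3 of 7 genes above 0.

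Pigment genes differed little between state 2 and the other cycling cells pooled. Of 17 pigment genes, 6 lay above 0 and 0 were 1.5-fold higher or lower, with a median of -0.04. The counts depended on the state compared. Against state 1, 2 of 17 lay above 0 (median -0.15), where 2624 of all 5323 genes tested did. Against state 4, 13 of 17 did (median 0.13), not far from the share of all genes (3438 of 5099, median 0.07). Against state 5, 3 of 17 did (median -0.18), where 3389 of all 5143 genes did (median 0.10). In that last comparison, 2 of the 17 were at least 1.5-fold lower, against 0.992% of all genes. The authors' Mitf score, whose genes are not stated, had a median of -0.0977 in state 2 and -0.00823 in other cycling cells. Tyr, which catalyses the first step towards melanin, was at 50.3 CPM in state 2 and 48.7 CPM in other cycling cells, Tyrp1 at 1413 CPM in state 2 and 1372 CPM in other cycling cells, and Pmel, which forms melanosome fibrils, at 1203 CPM in state 2 and 1119 CPM in other cycling cells. Trpm1, a melanocyte cation channel, was lower, with 49.5 CPM in state 2 and 65.4 CPM in other cycling cells (-0.40). Cdkn1a, the p21 cell cycle inhibitor, was at 371 CPM in state 2 and 373 CPM in other cycling cells. Ccnd1, the cyclin of G1, was at 45.7 CPM in state 2 and 55.6 CPM in other cycling cells (-0.28). Kdm5b, a histone demethylase, was at 3.27 CPM in state 2 and 4.47 CPM in other cycling cells, with overlapping intervals, and 1 of 186 state 2 cells was classed as high for it, against 19 of 1225 other cycling cells. Met, the receptor of hepatocyte growth factor, was at 6.402 CPM in state 2 and 11.4 CPM in other cycling cells (-0.83, -1.29 to -0.41).

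Lower genes were few. The 4 genes at least 2-fold lower were Ung and Hist1h2bc, given above, the chemokine Ccl5, given below, and Tmem150a, a membrane protein, with 12.0 CPM in state 2 and 25.5 CPM in other cycling cells (-1.08). Lgals3, which encodes galectin-3, was at 47.8 CPM in state 2 and 85.8 CPM in other cycling cells (-0.84, -1.002 to -0.69). By state it was at 47.8 CPM in state 2, 126 CPM in state 1, 52.6 CPM in state 4 and 108 CPM in state 5, so Lgals3 in states 2 and 4 lay close together. Vamp5, a membrane fusion protein, was at 132 CPM in state 2 and 198 CPM in other cycling cells (-0.59), and Fkbp11, a folding enzyme of the endoplasmic reticulum, at 101 CPM in state 2 and 132 CPM in other cycling cells (-0.38). Vamp5 was at 132 CPM in state 2, 115 CPM in state 1, 171 CPM in state 4 and 257 CPM in state 5. S100b, a calcium-binding protein of glia and melanocytes, was at 84.9 CPM in state 2 and 112 CPM in other cycling cells (-0.40). Hmga2, an architectural chromatin protein, was at 62.1 CPM in state 2 and 82.4 CPM in other cycling cells (-0.41). The other genes among the 15 lowest at 50 CPM or more, Mllt11, Olfr889, Fam178b, Nav2, Fam174b, Fam53b, Mgat5 and Map2k5, had log2 ratios between -0.57 for Mllt11 and -0.36 for Map2k5.

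The chemokines rested on a handful of cells. Cxcl10 was at 43.8 CPM in state 2 and 20.3 CPM in other cycling cells (log2 ratio 1.11, 0.93 to 1.29). However, the 5 cells with the most Cxcl10 UMIs held 72.5% of its state 2 total, 1 of them with 184 UMIs. Ccl5, a T cell chemoattractant, was at 32.8 CPM in state 2 and 67.3 CPM in other cycling cells (-1.04, -1.23 to -0.85), and 5 cells held 94.8% of its state 2 total. The counting intervals do not cover this spread between cells. The Cxcl10 log2 ratio was -0.01 once the deepest 5% of cells were left out and -1.21 within cluster C2 alone.

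State 1 had the G2/M scores closest to those of state 2, and it was also the state that held 1213 of the B16F10 cycling cells. Against the 165 cycling B16F0 cells of state 1, 67 of 5323 genes were at least 1.5-fold higher in state 2 (1.26%) and 88 lower (1.65%). Several genes known as stress-induced were lower in state 2. Gadd45a, induced by DNA damage, was at 31.2 CPM in state 2 and 79.4 CPM in state 1 (-1.35). Ppp1r15a, which restarts translation after stress, was at 52.1 CPM in state 2 and 112 CPM in state 1 (-1.11). Tnfrsf12a, the receptor of TWEAK, was at 114 CPM in state 2 and 223 CPM in state 1 (-0.97). Ero1l, an oxidase of the endoplasmic reticulum, was at 136 CPM in state 2 and 249 CPM in state 1 (-0.87), Hspa5, its main chaperone, at 117 CPM in state 2 and 188 CPM in state 1 (-0.69), and Hmox1, which breaks down haem, at 90.5 CPM in state 2 and 162 CPM in state 1 (-0.84). These genes were picked from the list of lower genes after their values were seen. The unfolded protein response list had 12 of 20 genes above 0, 3 at least 1.5-fold lower and a median of 0.04. Heat shock and chaperonin genes lay above 0 in 16 of 18 (median 0.19), and oxidative stress and iron genes in 10 of 21 (median -0.03, 2 at least 1.5-fold lower), where 2624 of all 5323 genes lay above 0. The summed level of the oxidative stress and iron list was 36720 CPM in state 2 and 45292 CPM in state 1.

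Genes higher in state 2 than in state 1 included Rad54l, Hes1, Mbp, Pmp22 and Fabp5, likewise named after their values were seen. They are single genes and not a theme. The glial and neural list had 2 of 6 genes at least 1.5-fold higher and 1 lower, and 0 of 38 S phase genes were 1.5-fold higher or lower. Rad54l, a motor of homologous recombination, was at 63.9 CPM in state 2 and 15.5 CPM in state 1 (2.05, 1.73 to 2.37). Hes1, a Notch target, was at 133 CPM in state 2 and 67.2 CPM in state 1 (0.98), Mbp, myelin basic protein, at 136 CPM in state 2 and 71.1 CPM in state 1 (0.94), and Pmp22, a peripheral myelin protein, at 47.3 CPM in state 2 and 17.2 CPM in state 1 (1.46). Fabp5, a fatty acid carrier, was at 1379 CPM in state 2 and 846 CPM in state 1 (0.70). Of 10 cholesterol genes, 9 lay above 0 (median 0.33), and of 10 glycolysis genes 8 did (median 0.25), where the median of all genes was -0.00. In the B16F10 library, cycling state 1 cells had 20.9 CPM of Rad54l, 39.5 CPM of Mbp, 63.9 CPM of Hes1 and 441 CPM of Lgals3. Those cells come from another library with no replicate, and library and line cannot be told apart.

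The cluster mix differed between these states. Of the 186 state 2 cells, 89 were in the authors' cluster C4 (47.8%, 40.5 to 55.3%), 96 in cluster C2 (51.6%, 44.2 to 59.0%) and 1 in C5, while of the 165 state 1 cells 152 were in C4 (92.1%). Values of the C4 cells of state 2 alone were therefore set beside state 1. Rad54l was at 25.6 CPM in those C4 cells and 15.5 CPM in state 1, and Mbp at 72.7 CPM in the C4 cells and 71.1 CPM in state 1. Hes1 was at 64.3 CPM in the C4 cells and 67.2 CPM in state 1, and Tyr at 85.6 CPM in the C4 cells and 84.1 CPM in state 1. Gadd45a was at 35.0 CPM in the C4 cells and 79.4 CPM in state 1, Ppp1r15a at 47.6 CPM in the C4 cells and 112 CPM in state 1, and Tnfrsf12a at 120 CPM in the C4 cells and 223 CPM in state 1. In the C4 cells, then, Mbp, Hes1 and Tyr lay close to their state 1 levels, Rad54l was higher, and Gadd45a, Ppp1r15a and Tnfrsf12a were lower.

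State 2 itself divided along the line between these clusters, and the other cycling cells differed between them as well. The clusters were made by the authors from the same expression values, so the differences between them describe the cells and are no test. C4 cells were deeper, with a median of 46343 UMIs against 37762 in C2 cells, and had a mitochondrial share of 4.73% against 5.31% in C2 cells. Their G2/M scores had a median of 0.201 in C4 cells and 0.285 in C2 cells, and 52 of 89 C4 cells and 67 of 96 C2 cells scored higher for G2/M than for S. In C4 cells, 79 of 5338 genes were at least 2-fold higher than in C2 cells (1.48%) and 64 at least 2-fold lower (1.2%). Outside state 2, medians of summed pigment genes per cell were 14918 CPM in other cycling C4 cells and 10568 CPM in other cycling C2 cells. In the same order, medians were 41977 and 31853 CPM for oxidative stress and iron genes and 597 and 510 CPM for interferon-stimulated genes. The Mitf score had medians of 0.134 and -0.147. G2/M scores, at 0.135 and 0.0542, ran in the reverse order to state 2.

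Many pigment and interferon-stimulated genes were higher in the C4 cells of state 2 than in its C2 cells. Of 17 pigment genes, 9 were at least 1.5-fold higher and 0 lower (median 0.68), where 5.3% of all genes were higher and 5.21% lower and the median of all was -0.06. Tyr was at 85.6 CPM in C4 cells and 9.99 CPM in C2 cells (3.10, 2.60 to 3.64), Pmel at 1750 CPM in C4 cells and 579 CPM in C2 cells (1.60), and Dct at 2876 CPM in C4 cells and 1507 CPM in C2 cells (0.93). The lineage regulators did not go the same way, with 2 of 6 above 0 and a median of -0.20. That share is not far from that of all genes tested, of which 2277 of 5338 lay above 0. Mitf was at 92.8 CPM in C4 cells and 72.7 CPM in C2 cells (0.35), and Sox10 at 71.9 CPM in C4 cells and 83.2 CPM in C2 cells (-0.21). Summed per cell, pigment genes had a median of 15186 CPM in C4 cells (lowest 2935, highest 26607) and 9543 CPM in C2 cells (lowest 1749, highest 18064). The authors' Mitf score had a median of 0.129 in C4 cells and -0.327 in C2 cells. Of 8 interferon-stimulated genes, 6 were 1.5-fold higher in C4 cells (median 0.97). A few C4 cells were far above the rest. The list sum per cell had a median of 636 CPM in C4 cells (highest 6605) and 448 CPM in C2 cells (highest 1530). Ifitm3, which blocks virus entry, was at 164 CPM in C4 cells and 72.2 CPM in C2 cells, while Isg15, with 46.1 CPM in C4 cells and 7.49 CPM in C2 cells, drew 77.0% of its state 2 total from 5 cells.

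Of 21 oxidative stress and iron genes, 8 were 1.5-fold higher in C4 cells and 0 lower (median 0.36). Srxn1, which repairs peroxiredoxins, was at 113 CPM in C4 cells and 43.3 CPM in C2 cells (1.39), and Prdx1, a peroxiredoxin, at 2626 CPM in C4 cells and 1412 CPM in C2 cells (0.90). Of 11 cholesterol genes, 11 lay above 0 in C4 cells and 4 were 1.5-fold higher (median 0.39). Over all 5338 genes tested, 2277 lay above 0 and 5.3% were 1.5-fold higher. Of 11 fatty acid genes, 7 lay above 0 and 4 were 1.5-fold higher (median 0.26), while the summed level of that list was 1827 CPM in C4 cells and 2261 CPM in C2 cells. Apoe, a lipid carrier, was at 1091 CPM in C4 cells and 317 CPM in C2 cells (1.78), and Ptgds, prostaglandin D synthase, at 1598 CPM in C4 cells and 518 CPM in C2 cells (1.62). Lgals3 was at 78.6 CPM in C4 cells and 13.3 CPM in C2 cells (2.56).

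C2 cells carried a different set. Prkg2, a cyclic GMP-dependent kinase, was at 3.23 CPM in C4 cells and 72.2 CPM in C2 cells (-4.48), though 5 cells held 40.7% of its state 2 total. Rad54l was at 25.6 CPM in C4 cells and 107 CPM in C2 cells (-2.07), Hes1 at 64.3 CPM in C4 cells and 210 CPM in C2 cells (-1.71), and Mbp at 72.7 CPM in C4 cells and 208 CPM in C2 cells (-1.52). Cyr61, a matrix protein and YAP target, was at 91.1 CPM in C4 cells and 213 CPM in C2 cells (-1.23), and Timp3, a protease inhibitor, at 49.4 CPM in C4 cells and 142 CPM in C2 cells (-1.52). Neat1, a nuclear noncoding RNA, was at 85.1 CPM in C4 cells and 205 CPM in C2 cells (-1.27).

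**Figure D5:**
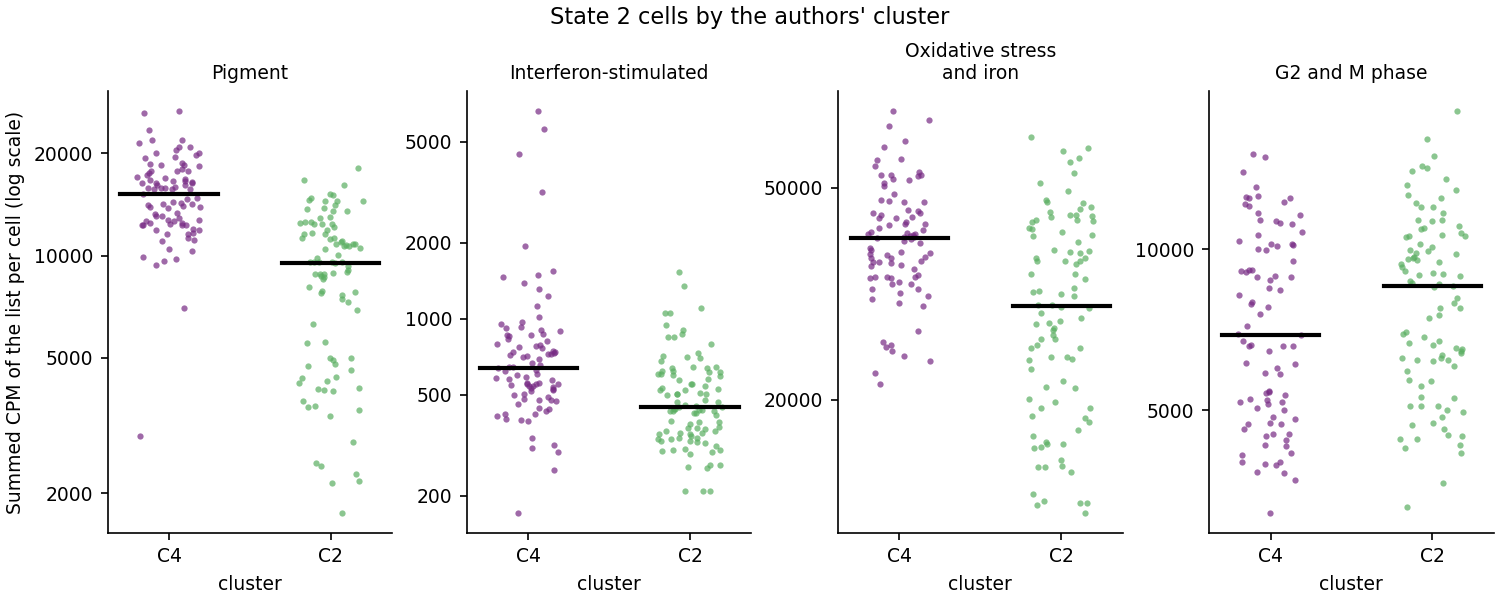
Summed CPM per cell (log axes) of 4 gene lists in the 89 C4 and 96 C2 cells of state 2; each point is 1 cell and the bar is the median. Pigment medians are 15186 CPM in C4 and 9543 CPM in C2 cells, with a tail of C2 cells towards 1749 CPM, while G2 and M phase medians are 6904 CPM in C4 and 8519 CPM in C2 cells.

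Set against other cycling cells of the same cluster, state 2 had more mitotic genes past 1.5-fold in C2 than in C4. Within C2, the list had 36 of 52 genes past 1.5-fold upwards in state 2 over other cycling C2 cells (median 0.68), where 2.77% of all genes were higher and 0.271% lower. Within C4, 46 of 52 lay above 0 and 4 were 1.5-fold higher (median 0.22), where 0.368% of all genes were higher and 0.485% lower. Aurka had a log2 ratio of 1.36 within C2 and 0.48 within C4, and Cdk1 1.04 within C2 and 0.65 within C4. Outside state 2, other cycling C4 cells had G2/M above S in 203 of 378, or 53.7%, and other cycling C2 cells in 204 of 545, or 37.4%, so the references differed in phase, and the difference between clusters was not tested. Pigment genes ran slightly below the other C2 cells (median -0.24, 3 of 15 above 0) and level with the other C4 cells (median 0.00, 9 of 17 above 0). Cholesterol genes lay above 0 in 11 of 11 within C4 (median 0.29) and in 5 of 8 within C2 (median 0.07), where 2826 of 5158 genes tested lay above 0 within C4 and 3527 of 5164 within C2.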

How the data were processed

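Single cells of B16F0 and B16F10 were profiled with 10x Genomics 3′ v2 kits, per the labels, with 1 library per line. The authors deposited raw UMI counts per gene and cell (14959 genes, 4156 cells), and those counts were used as deposited. The authors also deposited, per the file headers, a class, cluster, trajectory state, pseudotime and S, G2/M and Mitf score for each cell. The making of the scores and states is not described there or in the labels. The submitters' processing notes list Cell Ranger 3.0.0, Seurat 3.0 and the mm10 build, without roles. Filters on cells before deposit and any doublet removal are not stated, no doublet caller was run, and leaving out the 5% of cells with the most UMIs was one alternative.

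UMIs were summed over the cells of a group and divided by the total (CPM), which weights deep cells more. A gene was compared where either group reached 20 CPM. Log2 ratios have exact conditional binomial 95% intervals, CPM exact Poisson intervals and shares exact Clopper-Pearson intervals (a share of 0 has the limit of 3 counts), for counting error only. No test was made, since cells of 1 library are not replicates. A list median is over its genes tested. For shares of cells, each cell was thinned once to 19718 UMIs, the 10th percentile over B16F0 cells. The B16F0 library held 94268486 UMIs. The ratio script was tested on simulated data.

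Named genes were the 15 highest and 15 lowest ratios among genes of at least 50 CPM (predicted, ribosomal protein and mitochondrial genes left out), the 3 members of each of 46 lists with the largest ratios, and a fixed set of markers, of which some are not reported here; genes beyond these were chosen after their values were seen, including those of the comparisons with states 1, 4 and 5 and between clusters. Those comparisons, the matching on scores and the comparisons within clusters were added after seeing the data. The cells, lists and comparisons were chosen with earlier results of these data known. Positions and promoters are from GENCODE M21 and RefSeq on GRCm38; 11 of the 15 named highest genes and 48 of the G2 and M phase genes had a promoter in the RefSeq table. Whether counting used strand is not stated, so overlapping genes are uncertain. Alternatives covered scaling (TMM by edgeR 4.0.16 in R 4.3.3), CPM minimum, cell filters and reference cells. Scripts ran in Python 3.11.15 with pandas 2.3.3, matplotlib 3.10.9, scipy 1.17.1 and numpy 2.4.6.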

Additional observations from a re-analysis of the deposited data

How the results depend on the processing

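All results rest on 1 library, so the spread between cultures is unknown, and genes near 20 CPM have few UMIs in 186 cells. The planned comparisons among non-cycling cells could not be run because no state 2 cell was non-cycling. No paired analysis was possible because each line has 1 library. Of list medians, 486 values moved by less than the allowed spread and 57 by more; of log2 ratios, 1862 and 505, and 2 reversed. Cxcl10 reversed, with a log2 ratio of -0.0112 once the deepest 5% of cells were left out and -1.2117 within cluster C2; for other moved values the cause was not tested.

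Genes at least 2-fold higher in state 2 numbered 15, against 6 with TMM, 6 with median-of-ratios size factors, 6 with the total without mitochondrial and ribosomal protein genes, 4 at 100 CPM or more, 472 with no CPM minimum, 51 against the states shared with B16F10, 153 against all other B16F0 cells, 0 against score-matched cells and 1 within C4. Genes 2-fold lower numbered 4, against 0 at 100 CPM, 402 with no minimum, 2 against score-matched cells and 1 within C4. The G2 and M phase median of 0.69 was 0.88 against the shared states, 1.37 against all other B16F0 cells, 0.0883 after matching and 0.22 within C4.

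For state 1, the 67 genes 1.5-fold higher and 88 lower became 1035 and 1225 with no minimum and 13 and 11 at 100 CPM, with 145 lower under the total without mitochondrial and ribosomal protein genes. For state 4, 47 and 4 became 1077 and 770 with no minimum and 13 and 0 at 100 CPM, with 11 lower by TMM, 11 by median-of-ratios and 16 under that total. For state 5, 301 and 51 became 1455 and 1116 with no minimum and 83 and 7 at 100 CPM, with 108 lower under that total. Between C4 and C2 cells, 79 genes 2-fold higher and 64 lower became 530 and 787 with no minimum and 20 and 12 at 100 CPM, with 106 lower under that total. TMM set the median of all genes to 0.01, against 0.07, so ratios below about that size have no firm sign.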
